A study of Mus musculus with 6 samples.

Results

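Scleraxis (Scx), fibromodulin (Fmod), chondroadherin (Chad), tetranectin (Clec3b), tenomodulin (Tnmd) and cartilage oligomeric matrix protein (Comp) are genes of tendon and cartilage that a dissected muscle can carry at its ends. They were taken by symbol, as all probe sets to which the annotation of the array gives exactly 1 gene symbol and that symbol is one of the 6. This gave 5 probe sets for 4 genes, out of 12488 probe sets and 8251 genes with a symbol of their own on the array: 2 of Fmod and 1 each of Chad, Clec3b and Scx. No such probe set stood for Tnmd or Comp, which were not analysed here. Total RNA of soleus, a slow postural muscle, was hybridised to Affymetrix mouse arrays, 1 array a sample. There were 3 samples of male Esr2 knockout mice, called BERKO in the labels and lacking estrogen receptor beta, and 3 samples of male wild-type C57BL/6 mice. The labels give no age, no allele, no strain for the knockout, and no statement that a sample is a single animal, so the p-values below measure the spread among these samples, which may be technical. All 6 samples carry the same lot number. Their titles have 2 prefixes of unstated meaning: replicate 2 of the knockout and replicate 2 of wild type share the smaller prefix (2 arrays), and the other 4 arrays share the larger one.

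Scx is a basic helix-loop-helix transcription factor that marks the tendon lineage from its progenitors on, and factors of this class bind the short DNA motif called the E-box. Fmod is a small leucine-rich proteoglycan that binds type I collagen and steers the assembly of its fibrils. Chad, a leucine-rich protein of cartilage and tendon, binds collagen and cells. Clec3b encodes tetranectin, a C-type lectin that binds the kringle domains of plasminogen. Tnmd, a membrane protein of mature tendon cells, and Comp, a thrombospondin of tendon and cartilage matrix, complete the set.

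Promoter windows of Chad, Fmod and Tnmd were read from RefSeq. Those of Chad and Fmod are shown because the levels of these matrix genes are set beside that of Scx below, with the E-box, the kind of motif that a factor of the Scx class binds, in capitals. The Tnmd window, of a gene not measured here, held 0 matches to the E-box. Sequences are from RefSeq on build GRCm38.p6, 300 bases each, from 250 before to 50 after the start of the gene, on the plus strand, at chr11:94564797-94565096 for Chad and chr1:134037004-134037303 for Fmod.
Chad: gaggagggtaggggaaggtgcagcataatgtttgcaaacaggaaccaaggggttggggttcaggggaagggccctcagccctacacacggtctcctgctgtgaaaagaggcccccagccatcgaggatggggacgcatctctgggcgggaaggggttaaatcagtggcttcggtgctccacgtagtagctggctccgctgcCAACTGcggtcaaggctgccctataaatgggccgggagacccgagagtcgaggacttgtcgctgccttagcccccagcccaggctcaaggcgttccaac
Fmod: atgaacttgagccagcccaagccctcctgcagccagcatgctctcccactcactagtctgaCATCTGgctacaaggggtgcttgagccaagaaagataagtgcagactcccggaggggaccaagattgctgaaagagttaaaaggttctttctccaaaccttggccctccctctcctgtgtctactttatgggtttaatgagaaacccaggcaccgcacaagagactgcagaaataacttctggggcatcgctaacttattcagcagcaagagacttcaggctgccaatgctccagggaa
The E-box was searched as CANNTG, which reads the same on both strands. The Chad match, CAACTG, lies at bases -49 to -44 and the Fmod match, CATCTG, at bases -189 to -184 from the start. Of 32851 RefSeq promoter windows of the same length 72.3% held at least 1 E-box, so its presence is common. A TATA box, searched as TATAAA on both strands, lay at -28 to -23 in Chad and was found in 13.6% of the windows. The estrogen response element was searched as GGTCA and its reverse complement with 3 bases between them, which also reads the same on both strands. It was not among the letters of either window and was held by 0.07% of all windows. Its shorter part GGTCA, searched on both strands, lay at -42 to -38 in Chad and was present in 40.5% of all windows. These matches are descriptions of letters, not binding sites.

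The array medians were 36.8 to 39.3 in the knockout and 39.8 to 40.5 in wild type, in the authors' intensity units. The fibre markers Myh7, Tnni1, Mb, Ckm and Acta1 summed to 38592 to 39875 in the knockout and 29830 to 37717 in wild type. Of the fibroblast markers 8 of 9 were tested, and they summed to 4781 to 5187 in the knockout and 4568 to 5716 in wild type. A probe set was tested where 3 or more arrays read above 39.4, which is the median intensity over the data. Of the cartilage list 13 genes had a probe set and 5 were tested: Chad, the calcification inhibitor Mgp and the type IX collagen chains Col9a1, Col9a2 and Col9a3. Of the other 8, 6 stayed below that level on every array, among them the proteoglycan Acan at 4.6 to 24.7 and the type II collagen Col2a1 at 6.1 to 26.4. Of the 4 keratinocyte markers 0 passed the filter. Of the myotendinous list 8 of 9 genes with a probe set were tested, and Col22a1, at 1.1 to 3.5, was not. The cartilage label was thus borne by some of its genes and not by others. The targeted gene could not be checked, since the Esr2 probe set read 8.4, 3.9 and 6.2 in the knockout and 2.2, 3.2 and 1.3 in wild type, near or under the floor of 7.8 used here. In a whole muscle, fewer tendon cells and less RNA in each cell cannot be told apart.

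**Figure D1:**
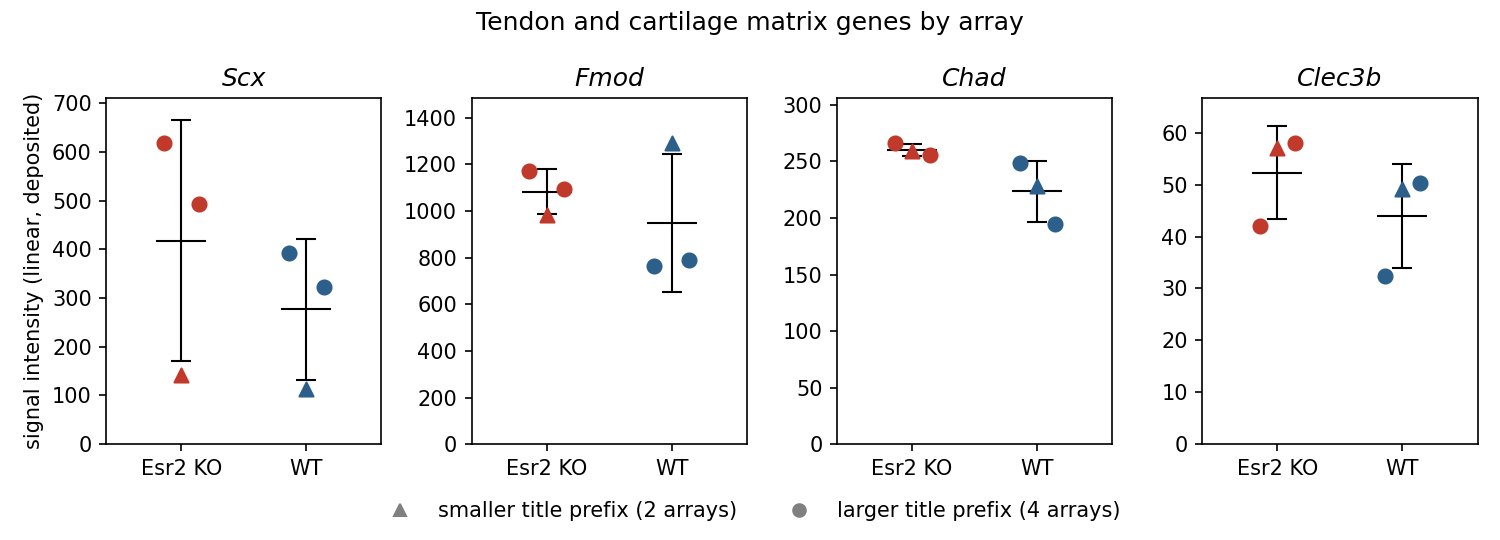
Deposited signal intensity (linear axis from 0) of Scx, Fmod, Chad and Clec3b on each array, Esr2 knockout left and wild type right. Points are arrays, triangles the 2 arrays with the smaller title prefix, the horizontal line the group mean and the bar 1 SD (n = 3 each). Both Scx triangles, at 141.1 and 114.0, lie far below the 4 circles, and the 3 Chad values of the knockout lie close together above those of wild type.

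Scx, the transcription factor of the set, read 617.8, 141.1 and 493.7 in the knockout (replicates 1 to 3) and 393.0, 114.0 and 322.8 in wild type. The means were 417.5 ± 247.3 in the knockout and 276.6 ± 145.1 in wild type (SD, n = 3 each). In both groups replicate 2 was the low array, and the groups overlapped. The log2 difference was 0.52 ± 0.58 (SE), with a 95% interval from -0.77 to 1.82 (limma, adjusted p = 0.960 over 6369 probe sets). The SD of Scx over the 6 arrays was 0.99 on the log2 scale, and 1.27% of the tested probe sets had a larger one, against a median of 0.22.

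Fmod had the brightest member probe set, with 1173.7, 984.7 and 1092.6 in the knockout and 764.8, 1291.3 and 791.8 in wild type. The wild-type values surrounded those of the knockout, with replicate 2 above all and the other 2 below all of them. Means were 1084 ± 94.8 in the knockout and 949.3 ± 296.5 in wild type (SD, n = 3 each), a log2 difference of 0.23 ± 0.19 (SE) with a 95% interval from -0.20 to 0.66 (limma, adjusted p = 0.958). The other Fmod probe set read 2.7, 3.6 and 3.1 in the knockout and 1.8, 2.5 and 1.9 in wild type. All 6 values were under the floor, so this probe set was not tested and gives no measure of the transcript.

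Chad read 266.2, 259.2 and 255.7 in the knockout and 248.3, 228.0 and 194.8 in wild type, with no overlap. The 3 knockout arrays differed little, with a coefficient of variation of 2.05%, which was smaller in 2.17% of the tested probe sets. In wild type it was 12.1%. Means were 260.4 ± 5.35 in the knockout and 223.7 ± 27.0 in wild type (SD, n = 3 each). The log2 difference was 0.23 ± 0.13 (SE), with a 95% interval from -0.07 to 0.52 (limma, adjusted p = 0.958). An exact two-sided permutation test of the 6 log2 values gave p = 0.1, the smallest that 3 against 3 allows.

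Clec3b was the dimmest member that was tested, with 42.0, 57 and 58.0 in the knockout and 32.4, 49.2 and 50.3 in wild type. Wild-type replicate 1 lay under the filter of 39.4 and the other 5 arrays above it. The groups overlapped, and replicate 1 was the low array in each. Means were 52.3 ± 8.96 in the knockout and 44.0 ± 10.03 in wild type (SD, n = 3 each), a log2 difference of 0.26 ± 0.27 (SE) with a 95% interval from -0.33 to 0.86 (limma, adjusted p = 0.958).

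Of the 5 probe sets 4 passed the filter, each brighter than it in both groups on at least 2 arrays a group. All 4 had a log2 difference above 0, which held for 46.8% of the 6369 probe sets tested. The median of the 4 was 0.25, beside -0.02 over all probe sets tested. At an adjusted p under 0.05 in limma 0 of the 4 were called, against a background of 0% of probe sets, and at an unadjusted p under 0.05 also 0 of 4, against 5.24%. The groups did not overlap for 1 of the 4, Chad, against 10.7% of all probe sets, or 5.45% with the knockout higher. The summed fibre markers, given above, were also higher in the knockout without overlap, with 2 of the 5 genes at an unadjusted p under 0.05 and 0 called in limma. Another, dimmer Myh7 probe set, not in the sum, was lower in the knockout without overlap (log2 difference -0.60, limma unadjusted p = 0.00959, adjusted p = 0.923). The part of the fibre markers in the values of the members was not tested.

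**Figure D2:**
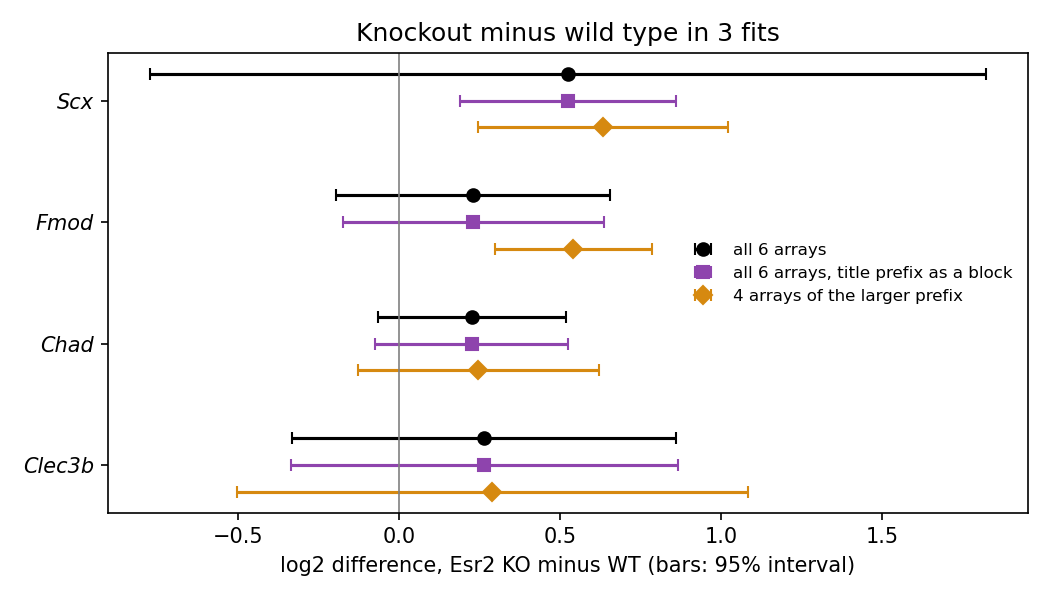
Log2 difference, Esr2 knockout minus wild type, of the 4 tested members (points) with 95% intervals (bars) in 3 fits: all 6 arrays, all 6 with the title prefix as a block, and the 4 arrays of the larger prefix. The interval of Scx runs from -0.77 to 1.82 over all 6 arrays and from 0.19 to 0.86 with the block.

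The title prefix divided the Scx values. Arrays with the smaller prefix read 141.1 (knockout) and 114.0 (wild type), and arrays with the larger prefix read 617.8 and 493.7 (knockout) and 393.0 and 322.8 (wild type). The lowest array of the larger prefix was 2.29 times the highest of the smaller. The prefixes did not overlap, with the smaller lower, in 9.42% of all probe sets. A gap of 2-fold or more in this direction was found in 10 of 6369 probe sets, 0.157%. In a limma fit with genotype and prefix, made after these values were seen, the Scx log2 difference of the smaller minus the larger prefix was -1.81 ± 0.16 (SE), with a 95% interval from -2.16 to -1.45 (adjusted p = 0.0139). It was the sole probe set called out of 6369, or 0.0157%. At an unadjusted p under 0.05 there were 595, or 9.34%, of which 359, or 5.64%, were lower with the smaller prefix.

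That call rests on few arrays. In limma the adjusted p rose to 0.111 without knockout replicate 2, 0.0944 without knockout replicate 3, 0.113 without wild-type replicate 1, 0.109 without wild-type replicate 2 and 0.199 when no probe set was filtered out, while the log2 difference stayed between -1.97 and -1.64. No other member was called between the prefixes: in the same limma fit the log2 difference of the smaller minus the larger prefix was 0.26 (adjusted p = 0.705) for Fmod, 0.25 (adjusted p = 0.825) for Clec3b and 0.02 (adjusted p = 0.975) for Chad. Whether Scx differs in this from each of them was not tested.

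The fibroblast markers, a list that holds Col1a1, Col1a2 and Lum too, summed to 5187 and 5716 on the arrays with the smaller prefix and to 4568 to 4978 on the others, without overlap. Of the 8 tested 1 was lower with the smaller prefix, and 0 were called in limma. The adipocyte markers, 5 of 7 tested, summed to 2768 and 3026 on the smaller prefix and 3012 to 3925 on the larger, with overlap, and most of this sum was the lipase Lpl. Of the 5 genes 2 were lower with the smaller prefix, and the median log2 difference of the list was 0.14. Over the other marker lists with tested genes this median ran from -0.56 for blood (2 genes, both lower) to 0.10 for the fibre markers. The bone markers, with 2 genes tested, had a median of -0.17, with 1 lower. Between knockout and wild type their median was 0.50, with both higher and 0 called in limma. For the Gapdh controls, whose 3' over 5' signal is a sign of RNA integrity, this ratio was 1.04 and 1.07 on the smaller prefix and 0.953 to 1.12 on the larger, and these ranges overlapped. The part of these signals in the Scx readings was not tested.

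**Figure D3:**
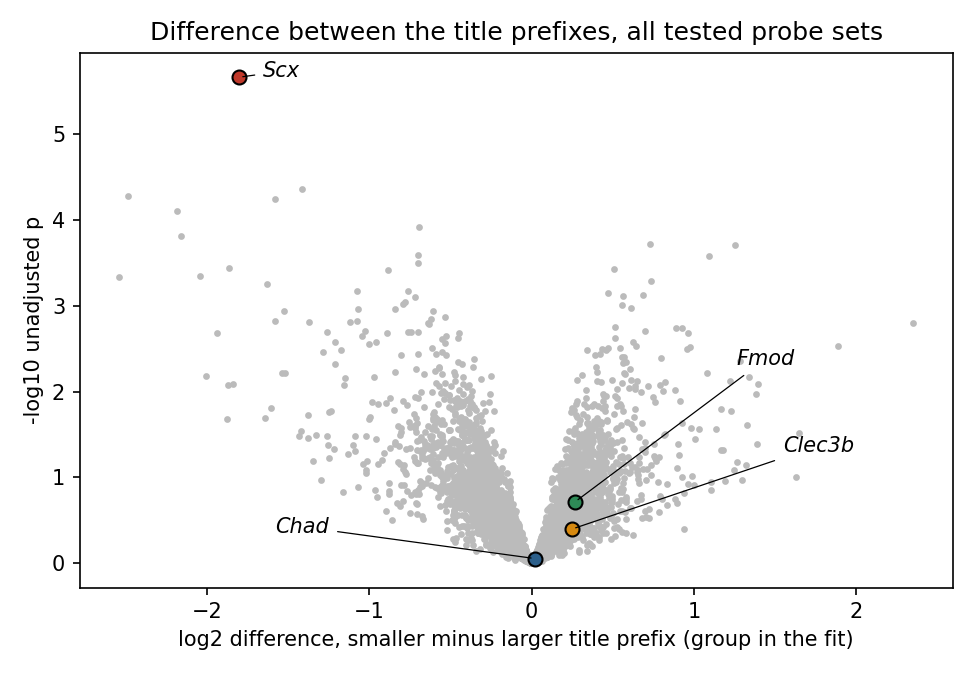
Each grey point is 1 of the 6369 tested probe sets. The horizontal axis is the log2 difference of the smaller minus the larger title prefix with genotype in the fit, and the vertical axis is -log10 of the unadjusted p. Scx stands at the top left with -1.81, while Fmod, Clec3b and Chad lie at 0.26, 0.25 and 0.02 among the bulk of the probe sets.

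The Scx gene lies inside the span of Bop1, a gene of ribosome assembly, on chromosome 15 in RefSeq, so the Bop1 readings were set beside it. The tested Bop1 probe set read 57.1, 70.7 and 67.5 in the knockout and 67.7, 67.9 and 72.3 in wild type. It showed no low value on either array of the smaller prefix (log2 difference 0.07 ± 0.18 (SE), smaller minus larger prefix, limma adjusted p = 0.932). The strand that the Scx probes read is not stated in the labels or files. Chad lies in the same way inside the span of Acsf2 on chromosome 11, and no gene overlaps Fmod or Clec3b.

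Within each prefix the knockout read higher for Scx and for Chad. For Scx the ratio of the means was 1.55 over the 4 arrays of the larger prefix and 1.24 for the single pair of the smaller. For Chad these were 1.18 and 1.14. All knockout arrays lay above all wild-type arrays of their own prefix for these 2 of the 4 members, against 9.73% of all probe sets. Fmod split: its ratio was 1.46 in the larger prefix and 0.763 in the smaller, where wild type was higher. Clec3b stood at 1.21 and 1.16, with overlap within the larger prefix.

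With the prefix as a block the Scx log2 difference stayed at 0.52. It had to, since each prefix holds as many knockout as wild-type arrays. The SE fell to 0.15, giving a 95% interval from 0.19 to 0.86 (limma, unadjusted p = 0.00685, adjusted p = 0.774). This made 1 of 4 members with an unadjusted p under 0.05, against 6.33% of all probe sets, or 3.66% with the knockout higher. Over the 4 arrays of the larger prefix alone, Fmod differed by 0.54 ± 0.10 (SE) on the log2 scale (limma, unadjusted p = 0.0014, adjusted p = 0.469) and Scx by 0.63 ± 0.16 (SE) (limma, unadjusted p = 0.00672, adjusted p = 0.469). Here 2 of 4 members had an unadjusted p under 0.05, against 8.9% of all probe sets, or 4.55% with the knockout higher, and 0 passed the adjusted threshold, against 0%.

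Covariation over the 6 arrays was computed for the 6 pairs of the 4 tested members on log2 values. For the 3 pairs with Scx no coefficient is given, because its values fell into separate clusters by title prefix and neither cluster holds 6 arrays. Chad and Fmod had a Pearson r of 0.38 and a Spearman rho of 0.26 (exact two-sided permutation p = 0.474 and 0.658; adjusted over the pairs, 0.840 and 1). Without the 2 arrays farthest from the Chad median, wild-type replicates 2 and 3, r was 0.88.

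Chad and Clec3b had r = -0.10 and rho = 0.03 (exact permutation p = 0.840 and 1; adjusted, 0.840 and 1), and r = 0.39 without the same 2 arrays. Fmod and Clec3b had r = 0.40 and rho = 0.14 (exact permutation p = 0.444 and 0.803; adjusted, 0.840 and 1), and r = -0.62 without wild-type replicates 1 and 3. No pair passed, and leaving out 2 arrays changed the coefficients by more than their size or turned their sign. The title prefixes hold 4 and 2 arrays, fewer than the 6 required here for a coefficient of its own, so none was taken within them. The values without 2 arrays show only how far a coefficient rests on those arrays.

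**Figure D4:**
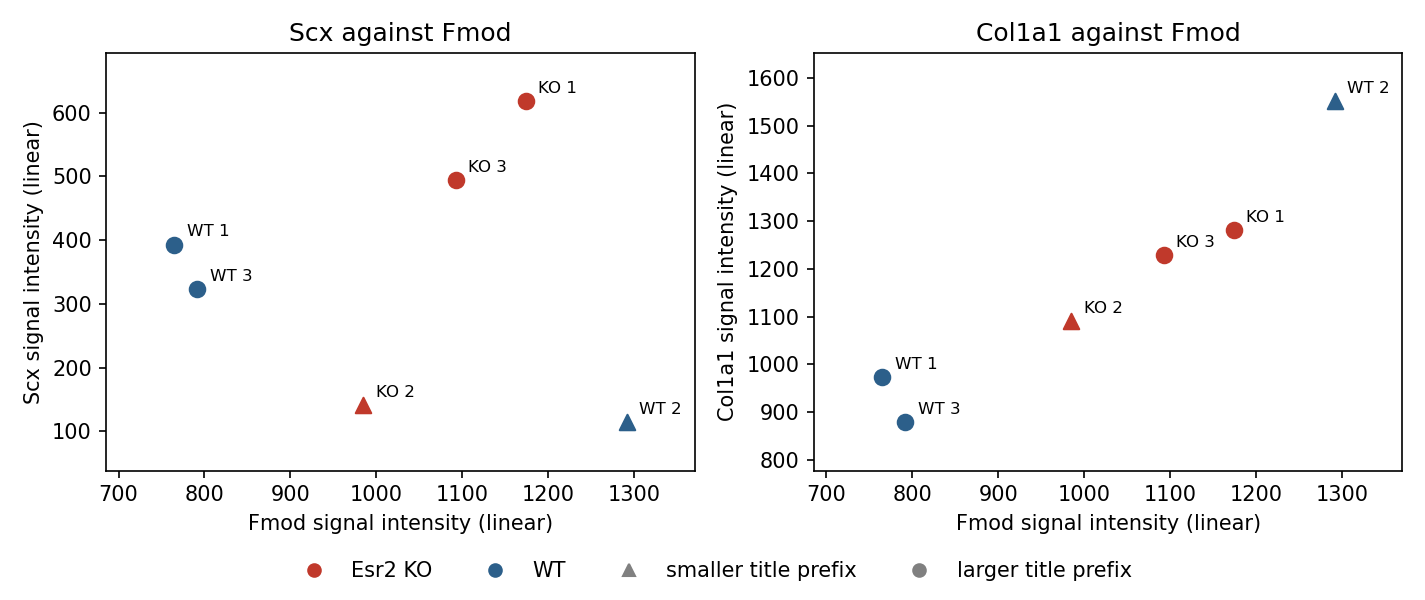
Signal intensity (linear) of Scx against Fmod, left, and of Col1a1 against Fmod, right, on the 6 arrays. Red is the knockout and blue wild type, and triangles are the smaller title prefix. The Scx values of the 2 triangles, 141.1 and 114.0, lie apart from the rest while their Fmod values, 984.7 and 1291.3, do not, and Col1a1 rises with Fmod from array to array.

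The array-to-array profile of Fmod was set beside that of the collagen its protein binds. The brighter probe set of Col1a1, which encodes the alpha 1 chain of type I collagen, read 1281.3, 1090.6 and 1227.9 in the knockout and 973.8, 1551.0 and 878.4 in wild type, with wild-type replicate 2 highest and the other 2 wild-type arrays lowest, as for Fmod. Chad, Fmod and Clec3b were each set against the 47 other tested genes of the tendon and matrix lists described below, in 141 relations computed after the values were seen. The smallest p belonged to Fmod and Tln1, a cytoskeletal protein of the myotendinous list, read by its brightest probe set. Here r was 0.94 and rho 1 (exact permutation p = 0.00139 and 0.00278, adjusted over the 141 to 0.196 and 0.392). Without wild-type replicates 1 and 3 r was 0.91. On the dimmer tested Tln1 probe sets knockout replicate 2 read lowest (308.0 and 33.4), while Fmod was lowest on wild-type replicate 1. Relations of those probe sets with Fmod were not computed. Between Fmod and Col1a1 r was 0.96 and rho 0.94 (exact permutation p = 0.00417 and 0.0167; adjusted over the 141, 0.294 and 0.783), and r was 0.98 without wild-type replicates 1 and 3. Col1a2, the other chain of type I collagen, had r = 0.84 with Fmod (rho = 0.89, exact permutation p = 0.0208 and 0.0333; adjusted, 0.718 and 0.783) and r = 0.80 without those 2 arrays. Col9a2, a chain of the type IX collagen of cartilage, had r = 0.88 (rho = 0.89, exact permutation p = 0.0278 and 0.0333; adjusted, 0.718 and 0.783) and r = 0.82. Col9a3, another chain of type IX collagen, had r = 0.86 and rho = 0.77 (exact permutation p = 0.0653 and 0.103, adjusted 0.734 and 0.870). Without those 2 arrays its r was 0.70. The other collagens did not run as close to Fmod. Over the 12 collagen chains tested r with Fmod ran from -0.64 for Col6a3 to 0.96, with a median of 0.40, and 4 chains were above 0.8. Col3a1, the type III collagen, had r = 0.26 (rho = 0.54, exact permutation p = 0.597 and 0.297; adjusted, 0.930 and 0.870). Not all close relations were with collagens. Clec3b and Sox6, of the regulator list, had r = -0.92 and rho = -0.83 (exact permutation p = 0.0111 and 0.0583, adjusted 0.522 and 0.870). Without replicate 1 of each group r was -0.90. Fmod had r = 0.88 with Nes, 0.86 with Serpinf2 and -0.83 with Itga7, and Chad -0.82 with Tgfbi. Their exact permutation p ran from 0.0375 to 0.0458, each adjusted to 0.718. Without 2 arrays, as above, r was 0.10, 0.83, -0.53 and -0.10. The relations named here were chosen after their values were seen, and no relation passed after adjustment.

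The other genes of tendon, cartilage and the muscle-tendon junction were read from 7 lists of 94 genes beside the members. Of these 75 had a probe set and 47 were tested, 18 with a difference above 0 and 29 below 0. Their median log2 difference was -0.05, beside -0.02 over all probe sets. In limma 0 of the 47 were called at an adjusted p under 0.05, with adjusted p from 0.923 to 1.000, and 1 had an unadjusted p under 0.05, or 2.13%, against 5.24% of all probe sets.

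Among the regulators of tendon and cartilage 8 genes other than Scx were tested, and none was called. Sox6, a factor of the cartilage lineage, read 52.5 ± 4.41 in the knockout and 64.8 ± 10.6 in wild type, Egr2, which acts in tendon cell differentiation, 35.3 ± 5.10 and 45.4 ± 4.40, and Smad2, which carries signals of transforming growth factor beta, 83.0 ± 20.3 and 71.7 ± 2.62 (SD, n = 3 each). The small leucine-rich proteoglycans had 4 of 6 tested genes above 0, of which Fmod and Chad are 2. Lumican, Lum, a close relative of Fmod that binds collagen as well, read 224.5, 286.8 and 238.3 in the knockout and 303.7, 279.9 and 264.9 in wild type, a log2 difference of -0.18. Values of the 2 relatives thus differed in sign, with neither called.

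Among the thrombospondins and other matricellular genes 5 of 6 tested genes lay below 0, with a list median of -0.28. Sparc, a collagen-binding protein, read 282.7 ± 33.8 in the knockout and 348.2 ± 40.1 in wild type, Thbs2 65.4 ± 6.71 and 81.4 ± 2.60, and Tgfbi 73.9 ± 16.7 and 91.5 ± 24.8 (SD, n = 3 each). Of the collagens and their processing genes 4 of 14 were above 0, with a median of -0.08. Their smallest unadjusted p belonged to Col6a2 (log2 difference 0.28), Serpinh1, the collagen chaperone (-0.30), and Col14a1, a fibril-associated collagen (-0.42). In the cartilage list 4 of 5 tested genes were above 0, Chad among them, with a median of 0.24. That median is Col9a1, with an SE of 0.61. Its mean intensity was lower in the knockout (67.7 ± 23.0 against 72.5 ± 49.7, SD, n = 3 each). Its wild-type replicate 1 read 17.2, under the filter. The type IX collagen chain Col9a3 read 89.7, 52.0 and 99.4 in the knockout and 49.4, 88.5 and 51.2 in wild type, with overlap, and Mgp, an inhibitor of calcification, stood at -0.30.

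**Figure D5:**
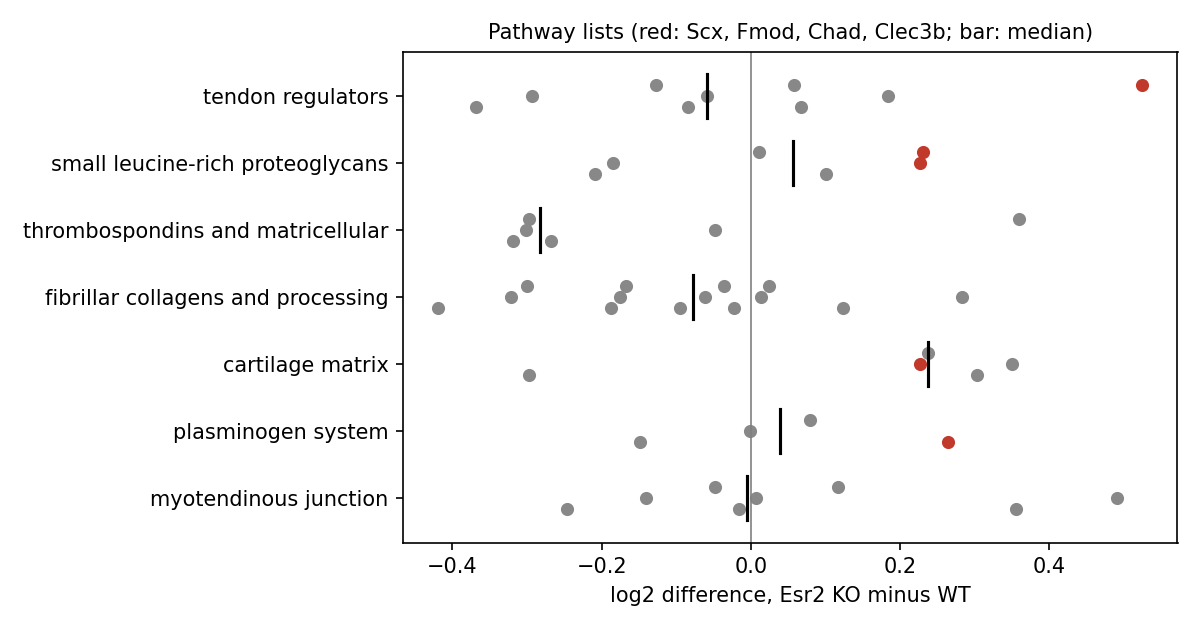
Log2 difference, Esr2 knockout minus wild type, of every tested gene (point) in the 7 lists, with the list median as a black bar and the members in red. The members lie between 0.23 and 0.52, and the list medians between -0.28 and 0.24.

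Of the plasminogen genes that surround Clec3b, the activator Plat had a log2 difference of -0.15 and the plasmin inhibitor Serpinf2 one of 0.08. Another Serpinf2 probe set read 3.1 to 7.2, under the floor, and was not tested. The myotendinous list held the 1 gene with an unadjusted p under 0.05. Nes, an intermediate filament protein found at this junction, read 283.0, 265.6 and 278.8 in the knockout and 204.0, 266.3 and 184.5 in wild type, so 1 wild-type array reached the knockout range, and its log2 difference was 0.35 ± 0.15 (SE) (limma, adjusted p = 0.923). Ankrd1, a stretch-responsive protein, stood at 0.49 and Lama2, a laminin chain of the fibre basement membrane, at -0.25.

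Over the 6 arrays, the 8 genes whose log2 profile had the highest Pearson r with the mean centred profile of the 4 tested members were Ube2o (0.99), Rtn2 (0.99), Snx2 (0.98), Ciao2a (0.98), Chchd10 (0.97), Wbp1 (0.97), Srpk1 (0.97) and Gys1 (0.97). Scx, with the widest spread, weighs most in that mean. Of 5704 probe sets compared 50, or 0.877%, had r above 0.9. The closest to each member were Hr (0.99) and Nomo1 (0.99) for Fmod, Ginm1 (0.98) and Timm17a (0.97) for Chad, and Usp2 (0.99) and Rac2 (0.98) for Clec3b. For Scx they were B3gat3 and Pcsk6. No coefficient is given, as for the pairs with Scx above, because its values fell into separate clusters by title prefix. B3gat3, an enzyme that builds the linker of glycosaminoglycan chains, read 65.1, 34.7 and 58.4 in the knockout and 56.1, 35.2 and 51.3 in wild type, so it shared the low values on the arrays with the smaller prefix. With 6 arrays and this many probe sets, values of r this high describe these arrays alone.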

How the data were processed

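The authors deposited 1 linear signal intensity for each probe set and array, and no label or header names the software that made it. Without the lowest and highest 2% of values the mean was 100.07 or 100.08 on each array, so the deposited scaling was kept. After 66 controls were set aside, values under the 20th percentile, 7.8, were set to that floor and log2 was taken. The 6369 probe sets that read above 39.4, the overall median, on 3 or more arrays were tested. Knockout minus wild type was fitted with limma 3.58.1 in R 4.3.3 (eBayes with an intensity trend, two-sided, Benjamini-Hochberg over all probe sets tested), which was also tested on simulated data. Python 3.11.15 with matplotlib 3.10.9 made the figures. Precision is limited by the 3 arrays a group, with a median SE of 0.18 on the log2 scale.

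Where a gene had several probe sets, the one with the highest mean stood for it in the lists. The genes named are the members, up to 3 of each list with the smallest p when none was called, 8 genes most like the mean profile and 2 most like each member, and Esr2. Bop1, Col22a1, Acan, Col2a1, Col9a1, Col1a1, Col1a2, Col9a2, Col3a1, Col6a3, Tln1, Itga7, Lpl, Myh4, Hoxd1 and Tuba1a were chosen after their values were seen. The members, lists and tests were chosen with earlier results of these data known. Alternatives were quantile normalization, median scaling, other floors and filters, no trend, the title prefix, adjacent title numbers as a block, and leaving out each array. The prefix difference and the relations with list genes were added after seeing the data.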

Additional observations from a re-analysis of the deposited data

How the results depend on the processing

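Over 16 alternatives, 62 of 63 values of the 4 tested members kept the direction above 0, and 0 passed the adjusted threshold (lowest limma adjusted p = 0.469). Many of these values repeat the main fit. The blocks, the floors, the filters and the fit without the trend left each log2 difference unchanged, so they are no check of direction. The exception in direction was Scx, at -0.023 without wild-type replicate 2, in a range up to 1.18 over single arrays left out. In those fits Chad ran from 0.13 to 0.30, Fmod from 0.10 to 0.47, Clec3b from 0.06 to 0.42, and the median of the members from 0.19 to 0.30. The median moved to 0.42 over the 4 arrays of the larger prefix. Clec3b did not pass the filter at the 70th percentile. The count of probe sets called between knockout and wild type was 0, but 1 with adjacent title numbers as a replicate block (Myh4), 1 without the filter (Hoxd1) and 0 to 1 with single arrays left out (Tuba1a without knockout replicate 1). No pair of members covaried past the adjusted threshold under other normalizations, floors or filters, and with an array left out, under the 6 required here, the pairs were not tested again. The Scx difference between prefixes was -1.81 without the filter (limma adjusted p = 0.199) and -1.97 to -1.64 with single arrays left out (adjusted p = 0.0306 to 0.113). The count called between prefixes was then 0 to 3, and 6 without the filter or without the intensity trend. The causes were not tested. Fewer arrays, or more probe sets in the adjustment, enter some of these fits, but the fit without the trend uses the same arrays and probe sets.

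The deviations of arrays with adjacent title numbers from their group means correlated at -0.005, 0.035 and -0.003 over 6369 probe sets. These values gave no sign of pairing over the probe sets as a whole, but cannot decide whether the samples were paired. The 2 arrays of the smaller prefix have adjacent numbers, so a block by these numbers also separates the prefixes. With these numbers as a replicate block the Scx log2 difference was 0.52 ± 0.13 (SE) (limma unadjusted p = 0.00485, adjusted p = 0.864), and no member was called. The difference itself could not change here, since each block holds a knockout and a wild-type array.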
